A study of Mus musculus with 8 samples.

Results

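The 10 genes described here carry the steps by which regulatory T cells (Treg) make, display, activate and sense TGF-beta. They were chosen by name: the ligand Tgfb1; its cell-surface anchor Lrrc32; the activation genes Furin, Itgav and Itgb8; the receptors Tgfbr1, Tgfbr2 and Nrp1; and the SMADs Smad3 and Smad7. All 10 were found among the 38215 genes listed, and all 10 were among the 13397 that passed the filter on low counts. Treg of the bone marrow (BM-Treg) and of the spleen (SP-Treg) were compared by RNAseq in 4 libraries each, made from FoxP3+ cells of naïve B6.FoxP3-GFP mice at 12 weeks of age. In these mice a green fluorescent protein reports FoxP3, the transcription factor that defines Treg. The genotype label reads C57Bl/6 for every library. BM-Treg replicates 1 to 3 were labelled female and batch 1, while BM-Treg replicate 4 and all 4 libraries of SP-Treg were labelled male and batch 3. Tissue, batch and sex therefore overlap almost wholly, and within batch 3 there was a single BM-Treg library. The study's methods differ from these labels in naming female mice unless otherwise stated. They give 4 replicates per condition, whereas the legend of the RNAseq heatmap gives 3 per tissue.

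TGF-beta is secreted in a latent form, in which the mature cytokine stays caged by its own propeptide after furin, a proprotein convertase, has cut the precursor. On Treg the latent complex is tethered to the membrane by GARP, the protein encoded by Lrrc32. The integrin formed by the alpha-v chain (Itgav) and the beta-8 chain (Itgb8) binds an RGD tripeptide in the propeptide and releases active cytokine. Active TGF-beta binds TGFBR2, which recruits and phosphorylates TGFBR1, and the receptors then phosphorylate SMAD2 and SMAD3. SMAD7 is induced by the pathway and inhibits it, and neuropilin-1 (Nrp1) is a co-receptor that also binds latent TGF-beta and marks many thymus-derived Treg.

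Both cut and contact points of the ligand lie close together in the gene. The stretches below are shown because they are where the products of Furin and of Itgav and Itgb8 act. They are coding bases of Tgfb1 transcript ENSMUST00000002678 in GENCODE M21 (GRCm38), on the plus strand, both in exon 5 of 7. The first holds the only RGD of the 390-residue protein, at residues 244 to 246 (chr7:25697133-25697159), and the second its only match to the furin pattern R-x-R-R, at residues 275 to 278 (chr7:25697226-25697255). Capitals mark the codons of the tripeptide and of the 4 residues of the furin site.
Tgfb1 RGD codons: cccaaacgtCGGGGCGACctgggcacc
Tgfb1 furin site codons: cacagctcaCGGCACCGGAGAgccctggat

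The expected counts of a library (estimated reads on genes) added up to 12427136 in the shallowest and 21921252 in the deepest. The 6 Treg markers checked (Foxp3 among them, at 1272 to 2081 CPM, counts scaled to the library total) summed to 7209 to 8730 CPM in every library. The 7 platelet markers, of another cell type with surface GARP, summed to 2.1 to 4.26 CPM in BM-Treg and 1.69 to 3.85 CPM in SP-Treg, and 5 of them stayed below 1 CPM in every library, while Gp1ba and Itga2b reached 1.81 and 2.59 CPM. Haemoglobin and other erythroid transcripts summed to 12.6 to 32.7 CPM in BM-Treg, but to 1.94, 187, 453 and 291 CPM in SP-Treg replicates 1 to 4, and B cell transcripts to 10.7 to 13.7 CPM in BM-Treg and 6.32, 88.3, 19.4 and 15 CPM in SP-Treg. The sex labels were not borne out in all libraries. The summed level of 4 Y-linked genes was 154 CPM in BM-Treg replicate 1 and 63.3 CPM in replicate 2, both labelled female and with Xist at 1229 and 2267 CPM, against 2.01 CPM in replicate 3 and 234 to 286 CPM in the males. The test results of the 10 genes and of the called genes of the wider pathway are therefore also given without replicates 1 and 2, an alternative added after the data had been seen. Ratios, levels and transcript shares are given with all 8 libraries only. The labels name separate samples but no mouse of origin, so that p-values measure the spread between these samples.

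Transcripts for 2 of the 10 genes, Lrrc32 and Itgb8, were significantly lower in BM-Treg, and none of the 10 was significantly higher. Of all genes tested, 5.02% were called lower and 3.72% higher (edgeR's quasi-likelihood test, Benjamini-Hochberg adjusted p under 0.05), or 8.75% in either direction. The 10 genes were chosen with earlier results of these data known, so these shares are a description and not a test of the list. The study had already reported lower Lrrc32 in BM-Treg from the same RNAseq. By flow cytometry of wild-type B6 mice it also reported less GARP protein on BM-Treg, a measure apart from these libraries. The same 2 genes were the ones whose CPM did not overlap between the tissues, as was seen for 16.2% of all genes tested. The median log2 fold change, BM-Treg minus SP-Treg, was -0.08 over the 10 genes and -0.01 over all genes tested. Without BM-Treg replicates 1 and 2 none of the 10 genes was called by edgeR. In that fit 3 of the 10 had an unadjusted p under 0.05, as did 2470 of all 13947 genes tested in it. The 8 genes not called in the full set had log2 fold changes there of 0.08 for Tgfb1, 0.26 for Furin, -0.23 for Itgav, -0.33 for Tgfbr1, 0.19 for Tgfbr2, -0.06 for Nrp1, 0.38 for Smad3 and 0.02 for Smad7 (adjusted p 0.194 to 0.976). Since batch 1 holds no SP-Treg library, a fit with a batch term sets BM-Treg replicate 4 alone against the 4 SP-Treg libraries, with the spread taken from libraries of both batches. Its values rest on that 1 BM-Treg library and are nearly the contrast within batch 3, not a second line of evidence. In bulk RNA, fewer cells expressing a gene and less RNA per cell cannot be told apart.

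**Figure D1:**
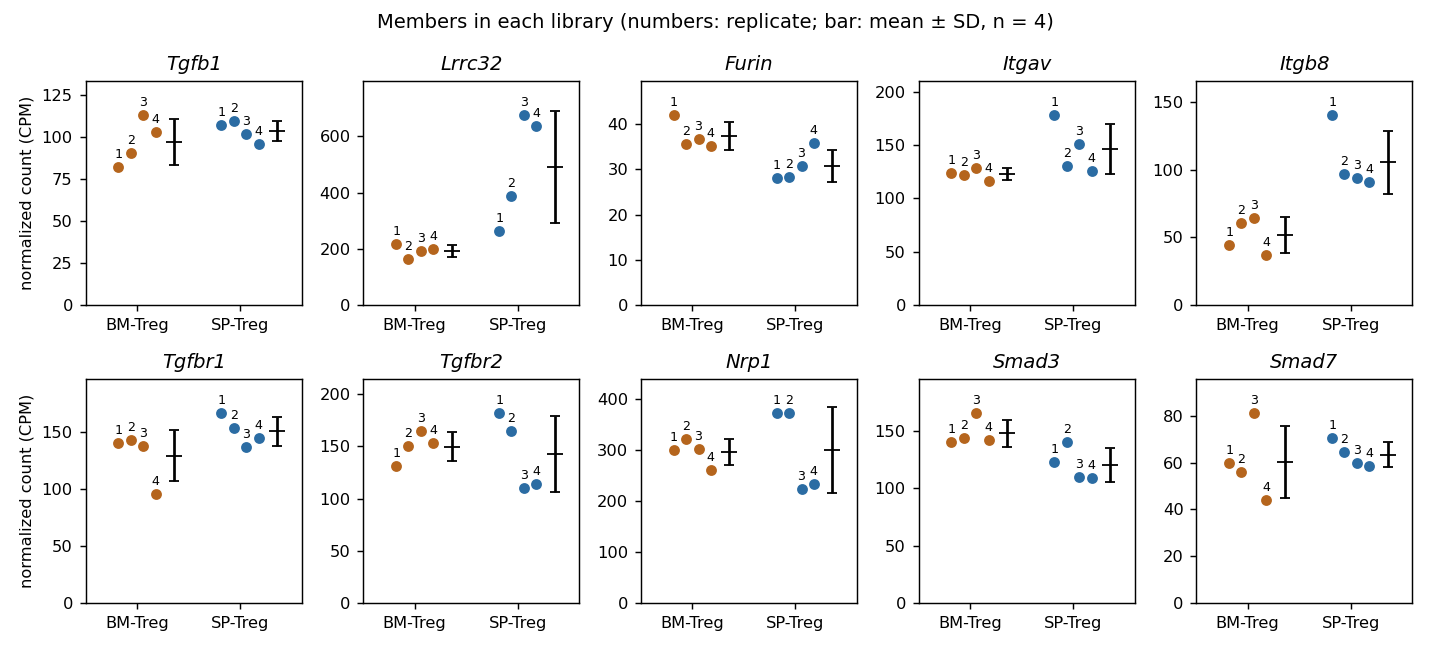
Normalized count (CPM, vertical axis from 0) of each of the 10 genes in the 4 BM-Treg (brown) and 4 SP-Treg (blue) libraries, with numbers giving the replicate and black bars the mean ± SD (n = 4). In the Lrrc32 and Itgb8 panels every brown point lies below every blue point, and in the other 8 panels the tissues overlap.

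Tgfb1 (chr7:25687002-25705077, plus strand) did not pass the test in either direction. Its level was 82.1, 90.8, 113 and 103 CPM in BM-Treg replicates 1 to 4, and 107, 109.8, 102 and 95.7 CPM in SP-Treg replicates 1 to 4. The lowest 2 libraries were BM-Treg, as was the highest. The log2 fold change was -0.10 ± 0.11 (SE), with a 95% interval of -0.33 to 0.14 (adjusted p = 0.650, edgeR).

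Lrrc32 (chr7:98494222-98501831, plus strand), whose product GARP holds latent TGF-beta on the Treg surface, had the lowest log2 fold change of the 10 genes over all 8 libraries. BM-Treg replicates 1 to 4 held 217, 164, 193 and 200.0 CPM, and SP-Treg replicates 1 to 4 held 264, 388, 675 and 637 CPM. The BM-Treg libraries lay close together (194 ± 22 CPM, SD, n = 4), whereas SP-Treg spread widely (491 ± 198 CPM, SD, n = 4), with replicate 1 only a little above the highest BM-Treg library. The log2 fold change was -1.34 ± 0.28 (SE; 95% interval -1.98 to -0.70, adjusted p = 0.0213, edgeR), which is 2.53-fold lower in BM-Treg.

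Lrrc32 was lower in BM-Treg in each alternative, but it was called in 10 of 18 alternatives with a test. With a batch term the log2 fold change was -1.30 with an adjusted p of 0.244, where 1.93% of all genes were called. Within batch 3, with no test, it was -1.18. Without BM-Treg replicates 1 and 2 it was -1.29 (adjusted p = 0.168). Leaving out a single library gave adjusted p between 0.000518 and 0.0676, with the lowest when SP-Treg replicate 1 was absent. The call was lost without any 1 of the BM-Treg libraries (0.0605, 0.0672, 0.0676 and 0.0551 for replicates 1 to 4) and without SP-Treg replicate 4 (0.056). Among the SP-Treg libraries Lrrc32 and the erythroid transcripts were both lowest in replicate 1 and highest in replicate 3, and the part of the erythroid transcripts in the result was not tested.

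Itgb8 (chr12:119158022-119238802, minus strand), the integrin chain that pairs with alpha-v to activate latent TGF-beta, was present at about 2-fold lower levels in BM-Treg. Its level was 44.3, 60.9, 64.5 and 37 CPM in BM-Treg replicates 1 to 4, and 140.1, 96.5, 93.9 and 90.8 CPM in SP-Treg replicates 1 to 4. SP-Treg replicate 1 stood above the other SP-Treg libraries, which lay close together and above all BM-Treg libraries. The log2 fold change was -1.02 ± 0.19 (SE; 95% interval -1.45 to -0.60, adjusted p = 0.00777, edgeR), or 2.03-fold lower.

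The Itgb8 difference kept its call without any 1 library (log2 fold change -1.15 to -0.84, adjusted p 0.00775 to 0.0359). With the batch term, which rests on BM-Treg replicate 4, the lowest BM-Treg library for Itgb8, its log2 fold change was -1.51 (adjusted p = 0.0274), and within batch 3 it was -1.47. The call was lost in 1 of 18 alternatives, without BM-Treg replicates 1 and 2, at the same log2 fold change of -1.02 (adjusted p = 0.0893). In SP-Treg the 2 genes ran in different orders: replicate 1 was the highest for Itgb8 and the lowest for Lrrc32.

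**Figure D2:**
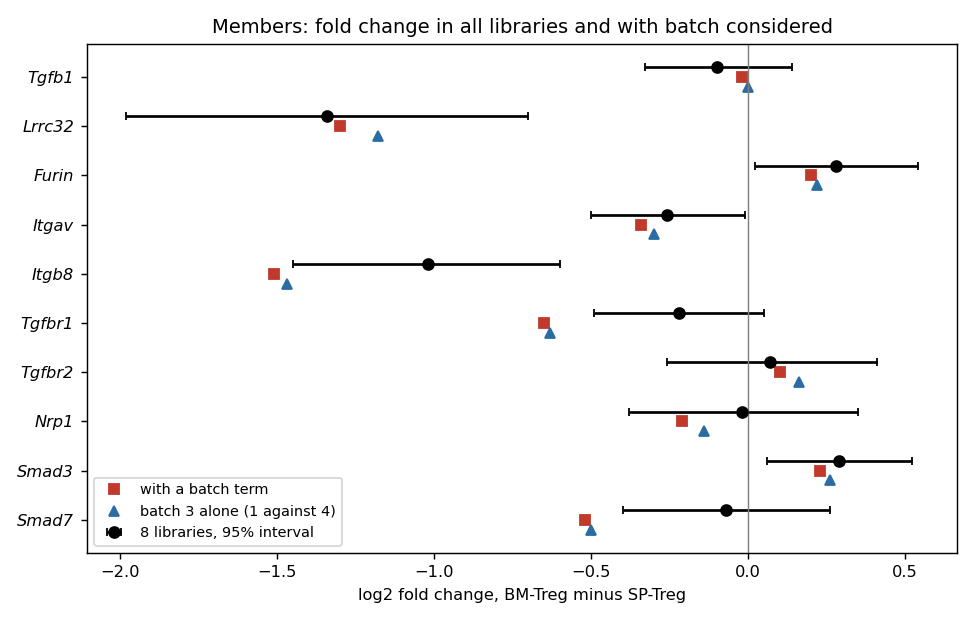
Log2 fold change (horizontal axis, BM-Treg minus SP-Treg) of the 10 genes from all 8 libraries with its 95% interval (black circles), with a batch term (red squares) and within batch 3 (blue triangles). The last 2 both rest on 1 BM-Treg library against 4 SP-Treg libraries. Itgb8 and Lrrc32 lie below -1 by each of the 3 estimates, and Tgfbr1 and Smad7 shift to -0.65 and -0.52 with the batch term.

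The promoter of Itgb8 is shown because, of the 2 called genes, it had an entry among the promoter sequences used. The sequence is that of RefSeq on GRCm38.p6 (chr12:119238227-119238526, minus strand), from 250 bases before to 50 after the start that RefSeq gives. That start lies inside the gene's bounds in the deposited tables, which begin further upstream, so that the whole printed window falls within them. An entry was found for 8 of the 10 genes. Promoters were searched on both strands for CAGAC, the core of the SMAD-binding element, for TGANTCA, the AP-1 site, and for TGTTTAC, a forkhead motif. CAGAC was found once in the Itgb8 promoter, at bases 55 to 59 of the printed strand, where capitals mark it. The promoters of 4 of the 8 genes held it (Furin, Itgb8, Nrp1 and Tgfbr2), as did 49.7% of 27025 promoters, and none of the 8 held TGANTCA (7.93% of all) or TGTTTAC (3.55% of all).
Itgb8 promoter: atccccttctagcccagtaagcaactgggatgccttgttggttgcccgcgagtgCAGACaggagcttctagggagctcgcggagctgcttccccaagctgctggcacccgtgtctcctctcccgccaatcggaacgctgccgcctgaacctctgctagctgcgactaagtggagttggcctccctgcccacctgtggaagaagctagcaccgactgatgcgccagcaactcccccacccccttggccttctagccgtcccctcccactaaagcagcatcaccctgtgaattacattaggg

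The partner chain Itgav (chr2:83724397-83806916, plus strand) was not called. It was present at 124, 122, 129 and 116 CPM in BM-Treg replicates 1 to 4 and 178, 130.4, 151 and 126 CPM in SP-Treg replicates 1 to 4. Only SP-Treg replicate 4 fell within the range of BM-Treg. Its log2 fold change was -0.26 ± 0.11 (SE; 95% interval -0.50 to -0.01, adjusted p = 0.189, edgeR), and on FPKM values (counts per transcript length and depth) it turned to 0.08.

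Furin (chr7:80388585-80405436, minus strand) was not called either. BM-Treg replicates 1 to 4 held 41.9, 35.5, 36.7 and 35.2 CPM, and SP-Treg replicates 1 to 4 held 28.1, 28.3, 30.7 and 35.7 CPM. The overlap came from SP-Treg replicate 4, which lay above BM-Treg replicates 2 and 4. The log2 fold change of 0.28 ± 0.12 (SE; 95% interval 0.02 to 0.54) did not pass the threshold after adjustment over all genes (adjusted p = 0.171, edgeR).

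Since libraries can differ in scaling, ratios of FPKM within a library were compared as a description. Itgb8 per Itgav was 0.179, 0.261, 0.247 and 0.166 in BM-Treg replicates 1 to 4 and 0.519, 0.451, 0.328 and 0.433 in SP-Treg replicates 1 to 4. This ratio separated the tissues in all 8 libraries, as Itgb8 by itself already did, and is not added support. Lrrc32 per Tgfb1, the anchor set against the ligand it holds, was 0.919 to 1.41 in BM-Treg and 1.35, 1.92, 3.5 and 3.45 in SP-Treg replicates 1 to 4. Here SP-Treg replicate 1 overlapped BM-Treg replicate 1. Itgb8 per Lrrc32 overlapped widely, at 0.122 to 0.251 in BM-Treg and 0.0908 to 0.323 in SP-Treg.

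**Figure D3:**
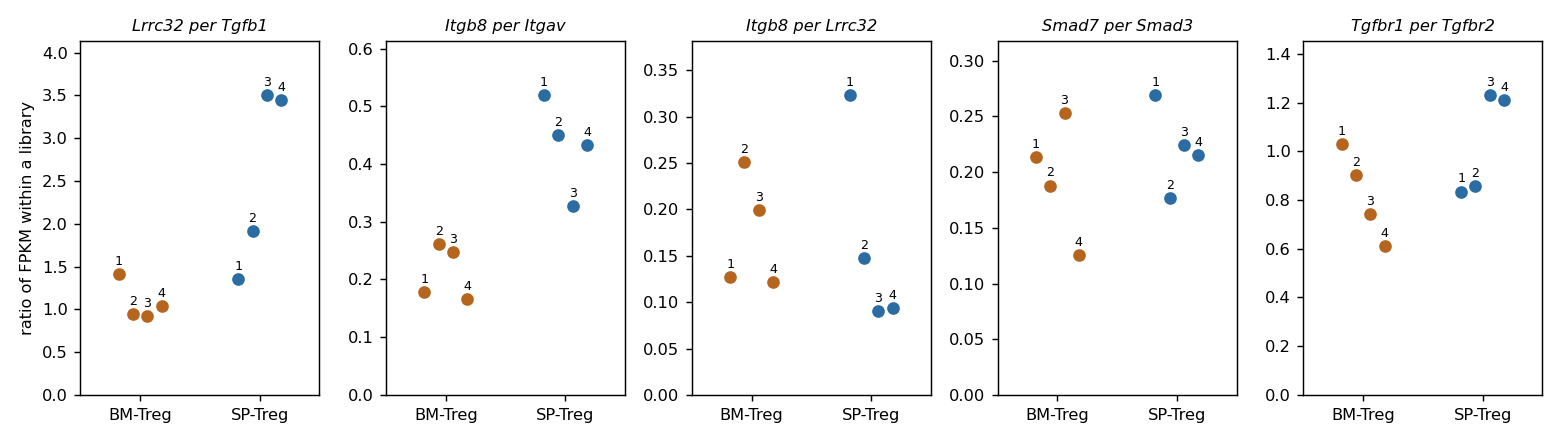
Ratio of FPKM of 2 genes within each library (vertical axes, from 0) for 5 pairs, with BM-Treg in brown, SP-Treg in blue and numbers giving the replicate. The tissues are apart for Itgb8 per Itgav (BM-Treg 0.166 to 0.261, SP-Treg 0.328 to 0.519) and overlap for the other 4 pairs.

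None of the 3 receptor genes passed the test in either direction. Tgfbr1 (chr4:47353222-47414931, plus strand), the kinase that phosphorylates SMADs, was at 140.2, 143, 138 and 96 CPM in BM-Treg replicates 1 to 4 and at 167, 154, 137 and 145 CPM in SP-Treg replicates 1 to 4. BM-Treg replicate 4, the only BM-Treg library of batch 3, was the lowest of the 8, and the others of BM-Treg overlapped SP-Treg. For Tgfbr1 the log2 fold change was -0.22 ± 0.13 (SE; 95% interval -0.49 to 0.05, adjusted p = 0.315, edgeR). With the batch term, which rests on that library, it was -0.65 (adjusted p = 0.0528).

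Tgfbr2 (chr9:116087698-116175363, minus strand), which binds the active ligand, was at 131, 150.1, 165 and 153 CPM in BM-Treg replicates 1 to 4 and at 182, 165, 109.8 and 114 CPM in SP-Treg replicates 1 to 4. This gave a log2 fold change of 0.07 ± 0.15 (SE; 95% interval -0.26 to 0.41, adjusted p = 0.826, edgeR). The SP-Treg libraries lay on both sides of BM-Treg, with replicates 1 and 2 near or above its highest library and replicates 3 and 4 below its lowest.

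Nrp1 (chr8:128359073-128505462, plus strand) showed the same arrangement. BM-Treg replicates 1 to 4 held 301, 322, 303 and 261 CPM, and SP-Treg replicates 1 to 4 held 372, 373, 223 and 233 CPM. The means were 297 ± 25.7 and 300.4 ± 83.6 CPM (SD, n = 4 each), and the log2 fold change was -0.02 ± 0.17 (SE; 95% interval -0.38 to 0.35, adjusted p = 0.959, edgeR). Replicates 3 and 4 of SP-Treg were thus the libraries with the most Lrrc32 and the least Nrp1 and Tgfbr2.

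The SMAD genes were not called. Smad3 (chr9:63646767-63757994, minus strand), the transcription factor that carries the signal to the nucleus, was at 140.3, 144, 166 and 142 CPM in BM-Treg replicates 1 to 4 and at 123, 141, 109.6 and 109 CPM in SP-Treg replicates 1 to 4. SP-Treg replicate 2 alone reached the range of BM-Treg. For Smad3 the log2 fold change was 0.29 ± 0.11 (SE; 95% interval 0.06 to 0.52, adjusted p = 0.108, edgeR).

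Smad7 (chr18:75367529-75395935, plus strand), the inhibitor that the pathway itself induces, was at 59.9, 56, 81.2 and 44.1 CPM in BM-Treg replicates 1 to 4 and at 70.5, 64.5, 59.8 and 58.6 CPM in SP-Treg replicates 1 to 4. BM-Treg held both the highest and the lowest library. For Smad7 the log2 fold change was -0.07 ± 0.15 (SE; 95% interval -0.40 to 0.26, adjusted p = 0.835, edgeR), and with the batch term it was -0.52 (adjusted p = 0.216).

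Compared per length as FPKM, the 10 genes spanned a range from Lrrc32 to Furin. Ordered by mean log2 FPKM over all 8 libraries, they ran Lrrc32, Smad3, Nrp1, Tgfb1, Itgav, Tgfbr2, Tgfbr1, Smad7, Itgb8 and Furin. Lrrc32 ranged from 46.3 to 167 FPKM (median 68.2), Tgfb1 from 43 to 58.6 (median 49.3) and Furin from 6.46 to 10.2 (median 8.08). The ranges of all neighbours in this order overlapped. Within libraries, Smad3 exceeded Nrp1, Tgfb1 exceeded Itgav and Tgfbr1 exceeded Smad7 in 8 of 8, whereas Lrrc32 exceeded Smad3 and Nrp1 exceeded Tgfb1 in only 4 of 8.

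The order differed between the tissues. Lrrc32 came first in SP-Treg (126 ± 46.4 FPKM, SD, n = 4), above Smad3 (68.6 ± 9.59 FPKM). In BM-Treg Smad3 came first (81.5 ± 8.22 FPKM), and Lrrc32 (53 ± 5.89 FPKM) was close to Nrp1 (52.2 ± 6.42 FPKM) and Tgfb1 (50 ± 6.43 FPKM). Itgb8 was at 9.08 ± 2.52 FPKM in BM-Treg, next to Furin at 9.07 ± 0.856 FPKM, and at 17.4 ± 4.74 FPKM in SP-Treg, next to Smad7 at 15 ± 2.4 FPKM.

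**Figure D4:**
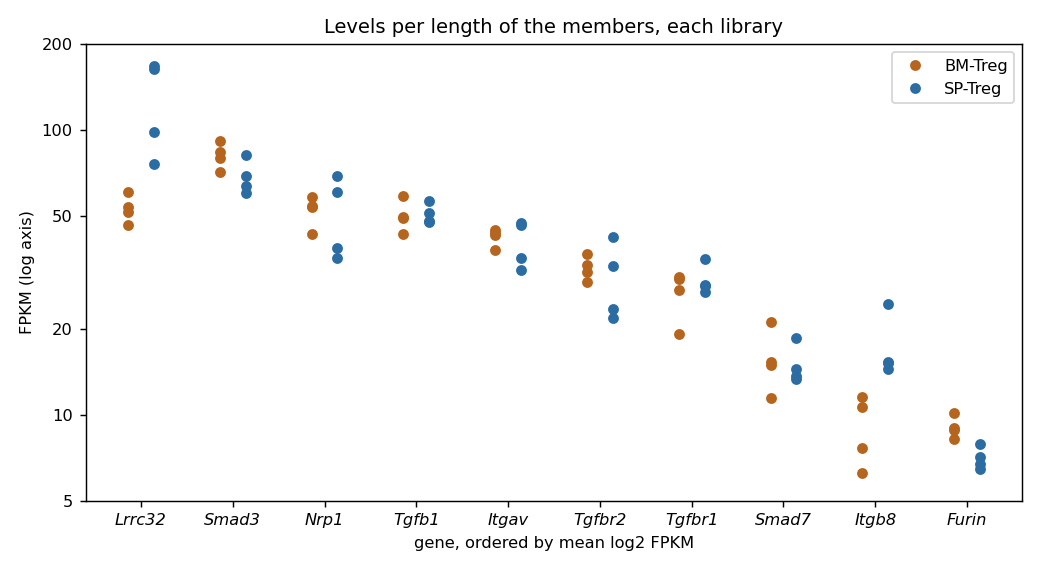
FPKM (vertical log axis) of the 10 genes in each BM-Treg (brown) and SP-Treg (blue) library, ordered from left to right by mean log2 FPKM over all 8 libraries. Lrrc32 in SP-Treg reaches 167 FPKM, Furin lies lowest with a median of 8.08 FPKM, and Itgb8 in BM-Treg falls to the level of Furin.

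The wider pathway was examined through 56 other genes in 7 roles, of which 41 passed the filter on low counts. In BM-Treg, 3 of these were higher and 6 lower, against 3.72% and 5.02% of all genes tested, and 32 did not pass the test, with a median log2 fold change of -0.09. This list too was chosen with earlier results of these data known, and the study had reported lower Itgae from the same RNAseq. The shares are therefore a description. The 9 calls became 4 without BM-Treg replicate 2 or without SP-Treg replicate 2, 5 without BM-Treg replicate 1 or 4 or SP-Treg replicate 1, and 6 without SP-Treg replicate 3. They became 3 on FPKM, 2 with the batch term and 1 without BM-Treg replicates 1 and 2. Those called lower were Hsp90b1, 4 regulators and Itgae, and those called higher were 1 regulator and 2 targets.

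Among ligands and anchors, Tgfb2 did not pass the filter. Tgfb3 was at 2 ± 0.101 CPM in SP-Treg and 1.2 ± 0.562 CPM in BM-Treg (adjusted p = 0.318, edgeR). Nrros, listed with the anchors, was at 62.5 to 79.6 CPM in BM-Treg and 55.4 to 60.6 CPM in SP-Treg. It was not called (log2 fold change 0.30 ± 0.10 SE, adjusted p = 0.0945, edgeR). The tissues did not overlap for Nrros, as was seen for 16.2% of all genes tested. Nrros was named after its values were seen. Hsp90b1, the endoplasmic reticulum chaperone gp96 that GARP and integrins need to fold, was the most abundant gene of the list, at 502 FPKM on average. It was at 480, 554, 537 and 642 CPM in BM-Treg replicates 1 to 4 and at 1053, 1001, 780.5 and 870.3 CPM in SP-Treg replicates 1 to 4. All BM-Treg libraries lay below all SP-Treg libraries (log2 fold change -0.74 ± 0.12 SE, adjusted p = 0.00221, edgeR). The call held without any 1 library, but neither with the batch term (log2 fold change -0.53, adjusted p = 0.164) nor without BM-Treg replicates 1 and 2 (-0.62, adjusted p = 0.0652).

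None of the 5 tested activation genes, 6 tested receptor genes or 4 tested SMAD genes was called. The most abundant of each were Itgb1, the integrin beta-1 chain (log2 fold change -0.03, adjusted p = 0.951), Tgfbrap1, a receptor-associated protein (0.10, adjusted p = 0.661), and Smad4, the common partner SMAD (-0.09, adjusted p = 0.69; all edgeR). Smad1, a SMAD of the BMP branch, was at 4.26 to 13.1 CPM in BM-Treg and 12.9 to 20.5 CPM in SP-Treg (adjusted p = 0.0722), and had a log2 fold change of -1.90 with the batch term (adjusted p = 0.0265), which rests on its lowest BM-Treg library, and of -0.81 without BM-Treg replicates 1 and 2 (adjusted p = 0.349). Smad1 was named after its values were seen. So was Bambi, listed among the receptors, which went the other way at a low level. Bambi was at 1.37 to 3.01 CPM in BM-Treg and 0.216 to 1.32 CPM in SP-Treg. Its log2 fold change was 1.59 (adjusted p = 0.079, edgeR), and it was called in 2 of 17 alternatives with a test.

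Of the 15 regulators, all of which were tested, 4 were lower and 1 was higher in BM-Treg, against 5.02% and 3.72% of all genes tested. Skil (SnoN), a SMAD co-repressor that TGF-beta induces, was at 136, 146, 174 and 108 CPM in BM-Treg replicates 1 to 4 and at 240.4, 223, 207 and 232 CPM in SP-Treg replicates 1 to 4. The tissues did not overlap, and its log2 fold change was -0.68 ± 0.13 (SE, adjusted p = 0.00421, edgeR). The Skil call held without any 1 library and was lost on FPKM with either pseudocount (-0.48 and -0.49, adjusted p = 0.0629 and 0.0638) and without BM-Treg replicates 1 and 2 (-0.65, adjusted p = 0.0865). With the batch term, resting on BM-Treg replicate 4, again the lowest BM-Treg library, its log2 fold change was -1.07 (adjusted p = 0.0147).

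The related inhibitors Pmepa1 and Ldlrad4, membrane proteins that keep receptor-regulated SMADs from the receptor, were lower too, with log2 fold changes of -0.82 ± 0.21 (SE, adjusted p = 0.0347) and -0.53 ± 0.15 (SE, adjusted p = 0.0362; edgeR). Pmepa1 was at 43.5 to 68.7 CPM in BM-Treg and 65 to 124 CPM in SP-Treg, where only SP-Treg replicate 3 and BM-Treg replicate 3 overlapped. Strap, which stabilises SMAD7 at the receptor, was lower (-0.43 ± 0.11 SE, adjusted p = 0.0277), and Rnf111 (Arkadia), a ubiquitin ligase that degrades SKI, SnoN and SMAD7, was higher (0.38 ± 0.10 SE, adjusted p = 0.0343). With the batch term these 4 genes had adjusted p of 0.213 for Pmepa1, 0.373 for Ldlrad4, 0.379 for Strap and 0.498 for Rnf111. Without BM-Treg replicates 1 and 2, Pmepa1 was at -0.63, Ldlrad4 at -0.56, Strap at -0.27 and Rnf111 at 0.34 on the log2 scale (adjusted p = 0.293, 0.137, 0.318 and 0.22), and on FPKM none of the 4 was called (adjusted p 0.0786 to 0.161). Pmepa1 was not called with no filter on low counts either (0.127). Their calls were also lost when some single libraries were left out: BM-Treg replicates 1, 2 or 4 or SP-Treg replicates 1 or 2 for Pmepa1 (adjusted p 0.069 to 0.111), BM-Treg replicates 2 or 3 or SP-Treg replicates 1 or 2 for Ldlrad4 (0.0785 to 0.114), BM-Treg replicates 1 or 2 or SP-Treg replicates 2 or 4 for Strap (0.0552 to 0.106), and any but BM-Treg replicate 4 or SP-Treg replicate 2 for Rnf111 (0.0509 to 0.0924). Ski, the most abundant regulator, had a log2 fold change of 0.09 (adjusted p = 0.669, edgeR).

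Of the 11 genes listed as targets, 6 were tested. Itgae, the CD103 integrin chain that TGF-beta induces in T cells, was at 135, 182, 166 and 171 CPM in BM-Treg replicates 1 to 4 and at 427, 343, 193 and 263 CPM in SP-Treg replicates 1 to 4. It was lower in BM-Treg (log2 fold change -0.91 ± 0.22 SE, adjusted p = 0.0276, edgeR), with SP-Treg replicate 3 nearest to the BM-Treg range. With the batch term its log2 fold change was -0.84 (adjusted p = 0.289), and its call was lost without any 1 BM-Treg library or SP-Treg replicate 2 (adjusted p 0.058 to 0.0869). It was also lost with no filter on low counts (0.117), on FPKM (0.0827 and 0.0883) and without BM-Treg replicates 1 and 2 (-0.84, adjusted p = 0.199). The study's own accounts of CD103 differ. Its results give lower Itgae RNA, but by flow cytometry, a protein measure, they place CD103 among markers carried by a subset of BM-Treg. Its discussion calls CD103 upregulated and describes more CD103+ Treg among those with the receptor TIGIT.

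Junb, an AP-1 subunit that is also an immediate early gene, was the most abundant target and was higher in BM-Treg, at 133 to 214 CPM against 43.3 to 98.1 CPM in SP-Treg (log2 fold change 1.31 ± 0.27 SE, adjusted p = 0.0216, edgeR). Id2, an inhibitor of E proteins, was higher as well (0.66 ± 0.17 SE, adjusted p = 0.0246), at 22.9 to 41.5 CPM against 19.6 to 24.1 CPM, where BM-Treg replicate 1 overlapped SP-Treg. The adjusted p with the batch term was 0.168 for Junb and 0.0528 for Id2. The Junb call was lost without BM-Treg replicate 4 or SP-Treg replicate 3 (adjusted p = 0.0516 and 0.0551), and the Id2 call without BM-Treg replicates 3 or 4 or SP-Treg replicates 1, 2 or 3 (0.0568 to 0.0803). With no filter on low counts Junb had an adjusted p of 0.0745, and with limma-voom Id2 had one of 0.0544. Without BM-Treg replicates 1 and 2, Junb was at 1.56 (adjusted p = 0.064) and Id2 was the 1 gene of the wider list called (0.95, adjusted p = 0.0127). Of the 6 tested targets, 2 were thus higher and 1 lower, against 3.72% and 5.02% of all genes tested. The list gave no direction in which TGF-beta acts on Id2 or Junb.

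**Figure D5:**
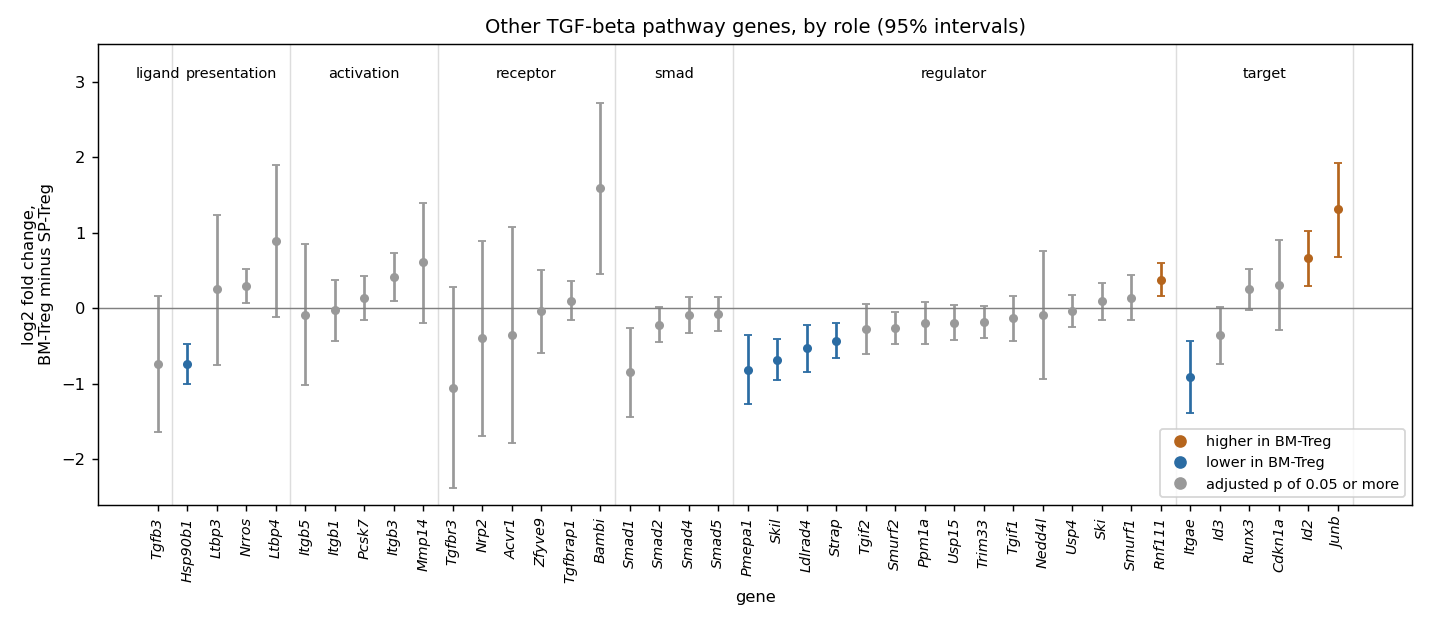
Log2 fold change (vertical axis, BM-Treg minus SP-Treg) with 95% interval for the 41 tested genes of the wider pathway, grouped by role from left to right. The 6 genes called lower (blue) include 4 regulators, the 3 called higher (brown) are Rnf111, Id2 and Junb, and grey points did not pass the test.

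For 8 of the 10 genes more than 1 transcript had counts, and Lrrc32 and Nrp1 had a single one in the tables. The share of counts taken by the most abundant transcript did not overlap between the tissues for 1 of these 8 genes, against 4.69% of 8217 genes with several transcripts. This was Smad7, where the share was 99.4% ± 0.363 in BM-Treg and 99.9% ± 0.0974 in SP-Treg (SD, n = 4). Both shares were close to the whole.

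The transcript shares of Itgb8 overlapped between the tissues. The full-length coding transcript Itgb8-201 took 78.8% ± 3.97 of counts in BM-Treg and 80.1% ± 4.2 in SP-Treg (SD, n = 4), with the rest on 2 transcripts annotated as retaining an intron. For Tgfb1 the transcript Tgfb1-201, from which the sites printed above were read, took 98% ± 0.619 and 98.3% ± 0.938. Tgfbr2 was the least settled: Tgfbr2-201 took 54.5%, 26.1%, 49% and 39.9% in BM-Treg replicates 1 to 4 and 82.7%, 71.4%, 96.2% and 27.3% in SP-Treg replicates 1 to 4. These estimates varied more between SP-Treg libraries than between the tissue means, and RSEM divides reads that overlapping transcripts share. As shares of FPKM in place of counts, the values for Itgb8-201 were 55.6% and 57.6%.

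The genes whose profile over the 8 libraries was most like that of the 2 called genes were found among 8556 genes whose log2 CPM averaged 3 or more, by the root mean square difference between log2 CPM values centred on each gene's mean. For Lrrc32 these were Ccr7 (0.17), a homing receptor for lymph nodes, Myc (0.19), a transcription factor of growth, and Nsg2 (0.20). Ccr7 was at 17.7, 15.5, 17.9 and 20.5 CPM in BM-Treg replicates 1 to 4 and at 25.4, 33.3, 48.9 and 68 CPM in SP-Treg replicates 1 to 4, with replicates 3 and 4 highest as for Lrrc32. For Itgb8 they were Cdk6 (0.14), a cell cycle kinase, Eea1 (0.15), an early endosome tether, and Twsg1 (0.16), a secreted BMP-binding protein. Twsg1 was at 176, 221, 263 and 151 CPM in BM-Treg replicates 1 to 4 and at 605, 478, 456 and 458 CPM in SP-Treg replicates 1 to 4, with BM-Treg replicate 4 lowest and SP-Treg replicate 1 highest as for Itgb8. The profiles share their libraries and depth, and the likeness is a description.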

How the data were processed

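RNAseq was performed on FoxP3+ cells sorted from BM and SP (4 libraries each), with SPIA amplification of 15 ng RNA and single-end 80 nt reads. Deposited by the authors were expected counts (estimated reads per gene or transcript, not normalized between libraries) and FPKM values. The submitters' processing notes name cutadapt 1.9, STAR 2.5.2a, RSEM 1.2.30 and GRCm38. No strand setting and no molecular identifiers were stated in the sources used here.

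Expected counts were rounded, filtered by edgeR's filterByExpr (13397 of 38215 genes), normalized by TMM and tested by edgeR's robust quasi-likelihood test without covariates, with Benjamini-Hochberg adjustment over all genes and a threshold of 0.05. CPM use TMM library sizes. Versions were edgeR 4.0.16, DESeq2 1.42.0 and limma 3.58.1 in R 4.3.3. Replicates of a tissue were not duplicates (chi-square per degree of freedom 14.2 to 92.4). All 117 list entries matched a gene, 7 of them by Ensembl identifier. Columns without a library numbered 0.

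The members and lists were chosen with earlier results of these data known. Named genes were all members, the wider genes that were called or most abundant in their role, and the 3 nearest profiles of each called member. Smad1, Bambi, Tgfb2 and Nrros were named outside this rule, after their values were seen. Alternatives are given with their effects in the closing section.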

Additional observations from a re-analysis of the deposited data

Results flagged for a closer look

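In 3 of 20 groups of 4 libraries (10 genes in each tissue), 1 library stood apart from the others by Dixon's criterion for 4 values (the gap to the nearest over the range), where chance sets apart about 1 in 20 such groups. Itgb8 in SP-Treg was highest in replicate 1, at 140.1 CPM against 90.8 to 96.5 CPM in the other SP-Treg libraries (gap over range 0.884). Tgfbr1 in BM-Treg was lowest in replicate 4, at 96 CPM against 138 to 143 CPM (0.903). Smad3 in BM-Treg was highest in replicate 3, at 166 CPM against 140.3 to 144 CPM (0.859).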

How the results depend on the processing

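Of the 18 alternatives with a test, Itgb8 stayed called in 17 and Lrrc32 in 10. Both genes were called with DESeq2's size factors, DESeq2's test, limma-voom, limma on log2(FPKM + 1) or log2(FPKM + 0.1), at least 10 counts in every library, and the replicate block. With the block the counts were 2 members, 6 wider genes and 948 genes in all, and the log2 fold change of Lrrc32 was -1.25 (adjusted p = 0.0427), while Pmepa1 (0.103), Ldlrad4 (0.0584) and Itgae (0.0673) were not called. The replicate numbers did not pair the samples (correlations of deviations -0.106, 0.0595, -0.176 and 0.0398).

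With no filter beyond 1 count in total, 1 member was called, and Lrrc32 had a log2 fold change of -1.32 (adjusted p = 0.075). With the batch term, resting on 1 BM-Treg library, 1 member, 2 wider genes (Skil and Smad1) and 258 genes in all were called, and Lrrc32 was at -1.30. On FPKM, 3 wider genes and 727 or 701 genes in all (pseudocount 1 or 0.1) were called, of which 456 or 436 were higher, against 499 of 1172 on counts. Without BM-Treg replicates 1 and 2, edgeR called 0 members, 1 wider gene and 312 genes in all, with Lrrc32 at -1.29 and Itgb8 at -1.02. An unadjusted p under 0.05 was reached there by 3 members and by 2470 of all 13947 genes tested. That setting was chosen after seeing the data, and no other tool was run in it. It leaves 2 BM-Treg libraries. In batch 3 alone Itgb8 was at -1.47. Leaving out 1 library gave 1 to 2 members, 4 to 8 wider genes and 690 to 1048 genes in all, with Lrrc32 between -1.53 and -1.15 and Itgb8 between -1.15 and -0.84. The cause of these changes was not tested.

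Signs turned only for genes that were not called. Itgav turned to 0.08 on FPKM with either pseudocount. Nrp1 turned to 0.02 with limma-voom and with the block, 0.09 on FPKM, 0.01 with at least 10 counts, and -0.14 to 0.12 without 1 library. Smad7 turned to 0.04 on FPKM, 0.02 without BM-Treg replicates 1 and 2, and -0.25 to 0.05 without 1 library. Tgfb1 turned to 0.08 without BM-Treg replicates 1 and 2, and Tgfbr2 ranged from -0.04 to 0.23 without 1 library. The median over all genes stayed between -0.02 and 0.06. By median FPKM, Lrrc32 and Smad3 changed places and 8 of 10 genes kept their rank. Each of the 10 genes had at least 28.1 CPM in every library, whereas 15 of the 56 wider genes were too low to test.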
